A study of Mus musculus with 9 samples.

Results

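Spinal cord of B10.PL mice with experimental autoimmune encephalomyelitis (EAE) that had received placebo was compared with cord of naive B10.PL mice. EAE is an autoimmune inflammation of the brain and spinal cord and serves as a mouse model of multiple sclerosis, and the comparison asked which transcripts differ in the diseased cord. It used 6 of the 9 arrays of the series, taken by their titles: placebo-treated EAE replicates 1, 5 and 10 against naive replicates 2, 3 and 4. The other 3 arrays, from EAE mice given 200 ng of 1,25(OH)2D3, the hormone calcitriol (replicates 6, 7 and 8), entered only the estimate of the spread, and the title of replicate 6 spells the agent 1,25(OH)2D2. Placebo was given 6 h before the cords were taken. The labels name neither placebo nor a time for the naive mice, so EAE and its placebo treatment cannot be told apart here. Each array held total RNA of 1 sample, and the labels do not say whether replicates were separate animals, so a p-value here reflects differences among samples that may in part be technical.

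In EAE, T cells directed against myelin enter the central nervous system and recruit monocytes and neutrophils from the blood. Resident microglia and astrocytes change their gene expression, while oligodendrocytes, which make myelin, and the axons it wraps are injured. Interferons released by immune cells induce GTPases and antigen presentation, and phagocytes take up debris into lysosomes rich in proteases. RNA of whole cord mixes all of these cells, so fewer cells of a type and less RNA per cell cannot be told apart.

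Values are signal units, the deposited brightness of each probe set scaled so that the arrays share a mean, and the lowest values were raised to a floor of 19.3. Differences are on the log2 scale, placebo-treated EAE minus naive, with standard errors (SE) of the fit and 3 arrays per group, and adjusted p-values are from limma with Benjamini-Hochberg adjustment over all probe sets tested, with a threshold of 0.05. Per-array values are listed in the order of naive replicates 2, 3 and 4 and of placebo replicates 1, 5 and 10. Across probe sets the correlation of log2 signals was 0.765 to 0.878 among naive arrays, 0.921 to 0.936 among placebo arrays and 0.814 to 0.904 between a naive and a placebo array. The median SD of a probe set within a group was 0.36 log2 in naive and 0.23 log2 in placebo cord. Naive replicates 2 and 4 were the least alike pair and had the most exact zeros, 176 and 171, against 65 on naive replicate 3. The labels do not say why values are exactly 0. The beta-actin control probe sets gave 5′ minus 3′ differences of -0.25, -0.03 and 0.12 log2 on the naive arrays and -1.11, -0.42 and -0.87 log2 on the placebo arrays. The difference was lower on all 3 EAE arrays, the arrays on which the rises below were measured, and its part in them was not tested.

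Genes that mark spinal cord were well above the floor. Aqp4, the astrocyte water channel, read 3331, 1092 and 978 on the naive and 1457, 1031 and 1867 on the placebo arrays, which overlapped. Cx3cr1, the fractalkine receptor of microglia, read 411, 435 and 496 and 369, 441 and 455, overlapping as well. Ptprc, the leukocyte antigen CD45, lay at or close to the floor in both groups, at 19.3, 19.3 and 44 on the naive and 43.7, 35.9 and 19.3 on the placebo arrays. Mbp, myelin basic protein, was bright at 1406 to 2318 on 5 of the arrays and listed at 0 on naive replicate 2. A dimmer Mbp probe set without a 0 read 223, 210 and 161 and 167, 151 and 155 and overlapped (-0.32 log2, limma adjusted p = 0.653). Over marker lists of cell types, the summed signal of 8 microglia and macrophage markers was 1567 to 1751 on the naive and 1856 to 2284 on the placebo arrays, and that of 7 neutrophil markers 1177 to 1239 and 1890 to 2251, both without overlap. No microglia and macrophage marker passed the limma test, with 2 of 8 higher at an unadjusted p under 0.05, and 2 of the 7 neutrophil markers did. These were S100a8 and S100a9, and with Ltf they were the 3 neutrophil markers higher without overlap. Camp, Elane, Mpo and Ngp overlapped and Ngp held an exact 0, so the neutrophil sum does not describe the whole list. Sums of T cell markers (6 measured, 2398 to 2530 and 1984 to 2469), B cell markers (3, 636 to 808 and 621 to 814) and endothelial markers (3, 298 to 339 and 297 to 441) overlapped between the groups. The 7 neuron markers summed to 5238 to 11108 on the naive and 3783 to 5030 on the placebo arrays. Of these markers 3 were lower and 1 higher without overlap, against 7.54% and 7.16% of all genes. The sums of the 7 oligodendrocyte markers overlapped, at 5712 to 7390 and 5869 to 6331, with 3 markers lower without overlap. Nefl, Stmn2 and Mbp held an exact 0, counted at the floor, so these 2 sums do not describe the whole lists.

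Most probe sets differed little. Of 12178 tested probe sets, the middle 90% of differences lay between -0.66 and 0.94 log2, the median was -0.02 log2, and 47.8% were above 0. The upper tail was the longer: the 1st and 99th percentiles were -1.11 and 1.91 log2, 560 probe sets (4.60%) were at least 2-fold higher and 181 (1.49%) at least 2-fold lower, and 107 were at least 4-fold higher against 6 lower. In limma, 114 probe sets (0.936%) passed at an adjusted p under 0.05, 108 higher (0.887%) and 6 lower (0.0493%). Probe sets whose naive and placebo arrays did not overlap were nearly as many on either side, 900 higher (7.39%) and 864 lower (7.09%). They differed by size: 310 of the 900 were at least 2-fold higher, and 93 of the 864 at least 2-fold lower. The lower ones were commoner at high signal, with 253 of 2436 in the brightest of 5 equal bins of signal against 88 of 2436 in the dimmest, where higher ones numbered 185 and 154. Precision also followed the signal, since the median SE was 0.18 log2 in the brightest bin and 0.45 log2 in the dimmest.

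**Figure D1:**
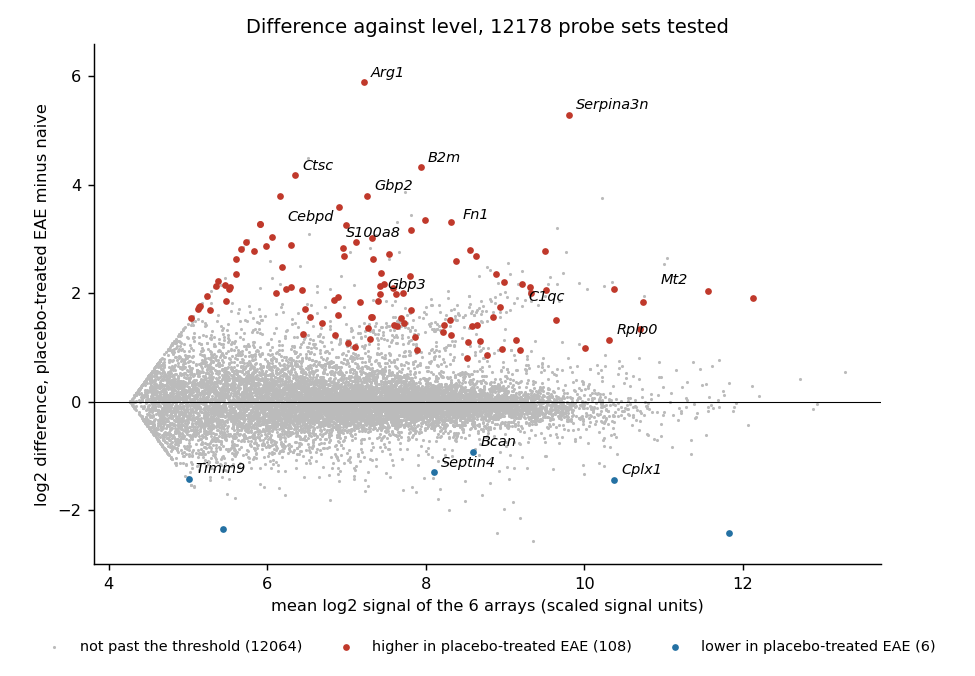
Log2 difference of placebo-treated EAE minus naive cord (vertical) against the mean log2 scaled signal of the 6 arrays (horizontal) for 12178 probe sets, with the 108 higher and 6 lower ones past the limma threshold in colour and some genes named. The points above 0 reach beyond 5 log2 while those below stay above -3 log2, and the slanted edges at the left are probe sets at the floor in one group.

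With 1 probe set per gene, 81 of 8170 genes passed (0.991%), 77 higher (0.942%) and 4 lower (0.049%), and 585 genes (7.16%) were higher and 616 (7.54%) lower without overlap. At an unadjusted p under 0.05, 441 genes (5.4%) were higher and 334 (4.09%) lower, the shares against which such counts of list members are to be read. Counts of list members without overlap are likewise to be read against 7.16% higher and 7.54% lower. The median rise was 2.04 log2: 2 genes rose by under 1 log2, 34 by 1 to 2, 28 by 2 to 3 and 13 by 3 or more. In 46 probe sets all naive arrays lay at the floor and all placebo arrays above it, and 12 of these passed. The reverse held for 14, of which 1 passed. Such folds are lower bounds and are written as "at least". Arrays of a group that all lie at the floor show no spread, so the SE and adjusted p of such probe sets may be too small. For 16 of the 81 genes the array held 18 other tested probe sets, of which 13 differed in the same direction and 2 also passed. Other probe sets of C1qb, Capg, Lcp1, Tgfbi and S100a10 pointed the opposite way, by -0.49 to -0.01 log2, none of them called (limma adjusted p of 0.800 or more). A further 14 genes, all higher, were called only by a probe set other than the one that stood for the gene, which makes 95 genes called by any probe set. They were Cyba, Laptm5, Tpm3, H2-D1, Iqgap1, Dab2, H2-K1, Socs3, Clu, Nfkbia, Galm, Fcer1g, Phf7 and Myh9, and in Tpm3 and Dab2 the probe set that stood for the gene pointed the opposite way. Counts of list members below are by the probe set that stands for each gene, and most genes called only by another are named beside them. Many of the called other probe sets have names with _f, which marks probe sets that may match related sequences. Uncalled other probe sets are mostly not given below, and some disagree. Those of Timp1, Tap1, Kif3a and Pax5 pointed the opposite way, by -0.74, -0.36, 0.08 and 0.02 log2. Those of Fcgr1, Grn, Fos and Samhd1 overlapped, at 0.13, 0.05, 0.04 and 0.004 log2, as did those of Lyz2 and Ly6e, at 0.25 and 0.24 log2. Ctsc had 2 others, at 0.55 log2 with overlap and 1.18 log2 without, and neither was called.

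Single arrays decided many calls. Of the 81 genes, 51, 46 and 12 lost their call without naive replicates 3, 4 and 2, and 56, 66 and 37 without placebo replicates 1, 5 and 10. Leaving out calcitriol replicates 6, 7 and 8, which lowers the residual degrees of freedom, lost 27, 15 and 18. The number of probe sets called ranged from 20 without placebo replicate 5 to 177 without naive replicate 2. No called gene changed direction in any of these fits. With the naive and placebo arrays alone 61 probe sets passed, all of them higher, so the 4 genes called lower did not pass. The 14 genes that kept their call with each of the 9 arrays left out, and in the other 10 settings tried, were Arg1, Serpina3n, Ctsc, Fn1, Cebpd, S100a8, S100a6, Ctsz, Capg, C1qb, Ctsl, C1qc, Ly86 and C1qa, all higher in EAE. Further probe sets of Cyba, Capg and Laptm5 did so too. Beside each other group of genes below stands the highest adjusted p that leaving out 1 array gave.

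**Figure D2:**
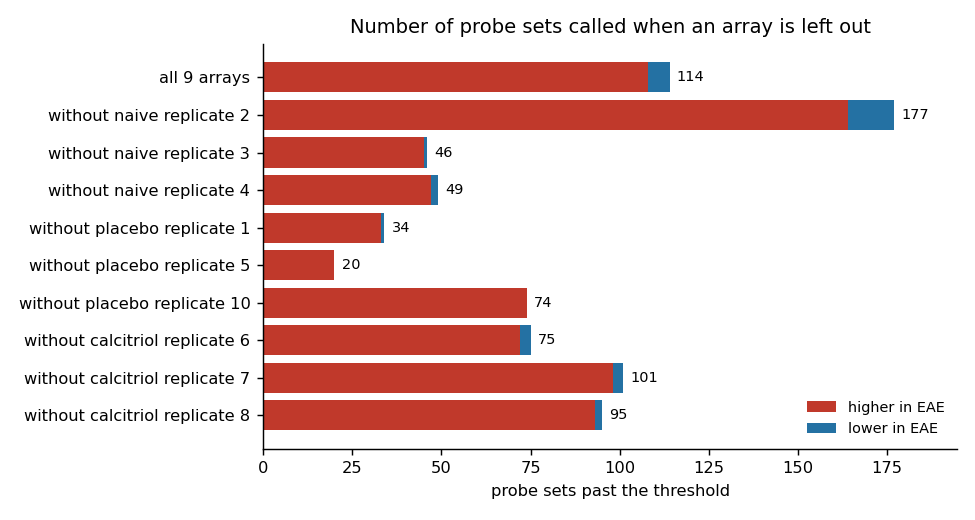
Number of probe sets past the limma threshold (horizontal), split into higher (red) and lower (blue), for the fit of all 9 arrays and with each array left out. The counts run from 20 without placebo replicate 5 to 177 without naive replicate 2, around 114 with all 9 arrays.

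**Figure D3:**
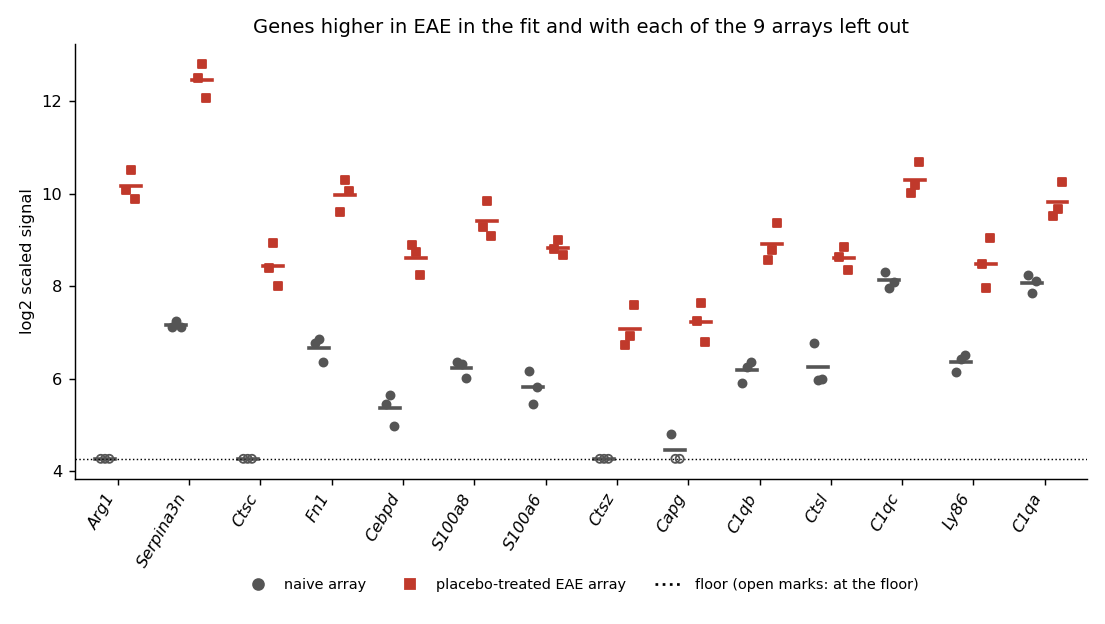
Log2 scaled signal (vertical) of the 14 genes called with each array left out, on each naive (grey) and placebo-treated EAE array (red), with bars at group means and open marks at the floor (dotted line). Every placebo array lies above every naive array in these 14 genes, and Arg1, Ctsc and Ctsz are at the floor on the 3 naive arrays.

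Several enzymes of phagocytes rose. Arg1, the arginase that phagocytes of the alternative kind use to break down arginine, read 19.3, 19.3 and 19.3 on the naive and 1084, 1465 and 952 on the placebo arrays. All naive arrays lay at the floor and no EAE array near it, a rise of at least 59.6-fold (limma adjusted p = 1.72e-06, 5.90 ± 0.21 log2, SE). Of 36 measured genes of the phagocyte lysosome, 7 rose, against 0.942% of all genes, and 17 were higher without overlap, against 7.16%. The median of the list was 0.43 log2, where that of all genes was -0.02 log2. Ctsc, the cathepsin that activates serine proteases of granules, read 19.3, 19.3 and 19.3 on the naive and 336, 489 and 256 on the placebo arrays. It too left the floor, rising at least 18.1-fold (limma adjusted p = 7.81e-04, 4.17 ± 0.34 log2, SE). Ctsz, an exopeptidase, read 19.3, 19.3 and 19.3 and 106, 121 and 193 and rose at least 7.02-fold (limma adjusted p = 0.00658). Ctsl, an endopeptidase, read 110, 62.7 and 63.6 and 397, 462 and 329 and rose 5.16-fold (limma adjusted p = 0.00335). Placebo replicate 10 was the brightest array for Ctsz and the dimmest for Ctsc and Ctsl, so the 3 EAE cords did not rank alike across these proteases.

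Ctss, the cathepsin that trims the MHC class II invariant chain, was already present in naive cord at 281, 186 and 175 and read 855, 1157 and 1222 in EAE, a 5.10-fold rise (limma adjusted p = 0.00895). Ctsh, an aminopeptidase, rose 2.97-fold with little spread, from 53.7, 51 and 57.7 to 154, 170.4 and 157 (limma adjusted p = 0.0253). Grn, the precursor of the lysosomal and growth factor granulins, rose 3.61-fold (limma adjusted p = 0.0259), and Cd63, a tetraspanin of lysosomal membranes, 3.24-fold (limma adjusted p = 0.0374). Lyz2, the lysozyme of myeloid cells, read 19.3, 19.3 and 19.3 on the naive and 112, 253 and 229 on the placebo arrays. It was at the floor in all 3 naive cords and rose at least 9.70-fold (limma adjusted p = 0.0140), and its probe set may share signal with the closely related Lyz1. Chil1 and Chil3, chitinase-like proteins of macrophages, astrocytes and neutrophils, differed in their most responsive cord. Chil3 read 72.2, 64.1 and 111 and 1100, 1670 and 292, with placebo replicate 10 the lowest, while Chil1 read 19.3, 19.3 and 19.3 and 121, 176 and 307, with that array the highest. Chil3 rose 10.1-fold and Chil1 at least 9.69-fold (limma adjusted p = 0.0387 and 0.0107). With 1 array left out the highest adjusted p reached 0.0602 for Ctss, 0.0677 for Chil1 and 0.0877 for Lyz2 (without placebo replicate 5), 0.136 for Ctsh and 0.134 for Grn (also without it), and 0.179 for Cd63 and 0.195 for Chil3 (without placebo replicate 1). Of 13 genes of the phagocyte NADPH oxidase and nitric oxide pathway Arg1 alone passed by these probe sets. Cyba, the oxidase's membrane subunit, read 222, 228 and 236 and 430.2, 678 and 364 (1.05 ± 0.28 log2, SE, limma adjusted p = 0.180). A second Cyba probe set read 58.4, 38.5 and 44.2 and 277, 366 and 356 and rose 7.13-fold (limma adjusted p = 0.00395, and at most 0.0351 with 1 array left out). A second probe set of Laptm5, a lysosomal membrane protein of leukocytes, rose 2.66-fold, from 230.4, 244 and 265 to 652, 546 and 790.4 (limma adjusted p = 0.00401).

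The 3 chains of C1q, the recognition molecule that starts the classical complement pathway and is made in the nervous system mainly by microglia, rose together. C1qa read 302, 230 and 278 on the naive and 734, 813 and 1221 on the placebo arrays. C1qb read 60.3, 76.5 and 82.7 and 378, 438 and 661, and C1qc read 319, 250.3 and 273 and 1036, 1162 and 1634. In each of the 3 chains the naive arrays were tightly grouped, placebo replicate 10 was the highest array and placebo replicate 1 the lowest of the EAE arrays. The rises were 1.75 ± 0.22, 2.72 ± 0.29 and 2.17 ± 0.21 log2 (SE; limma adjusted p = 0.00836, 0.00395 and 0.00222). These were the members that passed among 16 measured complement genes, whose median was 0.14 log2. Ly86, also called MD-1, a partner of the Toll-like receptor homologue RP105, read 70.6, 85.6 and 90.8 and 354, 248 and 523 and rose 4.38-fold (limma adjusted p = 0.00808). Placebo replicate 10 was again its highest array.

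Of 15 Fc receptors and their signalling partners, 1 rose. Fcgr2b, the inhibitory receptor for IgG, read 19.7, 19.3 and 19.3 and 55.5, 127 and 88.5, 2 naive arrays being at the floor (2.14 ± 0.41 log2, SE, limma adjusted p = 0.0476). Without placebo replicate 5 its adjusted p was 0.214. A second probe set of Fcer1g, the signalling chain shared by activating Fc receptors, left the floor of all 3 naive arrays for 59.9, 51.4 and 92.5, at least 3.42-fold (limma adjusted p = 0.0364, and 0.136 without placebo replicate 1), while the one that stood for the gene did not pass. The phosphatase Ptpn6, which carries inhibitory signals, came to 0.71 ± 0.18 log2 (SE), the inhibitory receptor Pirb to 0.65 ± 0.20 and the activating high-affinity receptor Fcgr1 to 0.75 ± 0.30 log2. Their limma adjusted p-values were 0.166, 0.275 and 0.459, although the groups did not overlap in any of the 3. Of 33 measured markers of leukocyte and phagocyte surfaces 5 rose: Ly86, Cd9, Cd52, Cd53 and Cd63. Cd53, a tetraspanin of leukocytes, read 19.3, 19.3 and 19.3 on the naive and 129, 279.9 and 89 on the placebo arrays. It left the floor in every EAE array, most in placebo replicate 5, with a rise of at least 7.66-fold (limma adjusted p = 0.0215). Cd52, a small glycoprotein of lymphocytes and monocytes, rose 3.95-fold, and Cd9, a tetraspanin of myelin and phagocytes, 4.28-fold (limma adjusted p = 0.0265 and 0.00836). Itgam, the complement receptor chain CD11b, read 33.6, 59.4 and 19.3 and 129, 249.7 and 111 but did not pass (2.18 ± 0.48 log2, SE, limma adjusted p = 0.0852). With 1 array left out the highest adjusted p was 0.0602 for Cd9 and 0.134 for Cd52 (without placebo replicate 5) and 0.0923 for Cd53 (without placebo replicate 1).

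Interferon-induced GTPases had the highest median among the 64 lists drawn up. Of 10 measured interferon-induced GTPases, which attack the vacuoles of intracellular pathogens, 4 rose and 6 were higher without overlap, with a median of 1.69 log2. Its smallest value over the 19 alternative settings was 1.11 log2. The 4 were Gbp2, Gbp3, Gbp7 and Iigp1. Matches to the interferon-stimulated response element, the sequence bound by the STAT and IRF factors that interferons activate, were sought on both strands as the letters GAAA, any 2 bases and GAAA again, in the 250 bases upstream of RefSeq gene starts (GRCm38.p6). The promoters of Gbp2, Gbp3 and Gbp7 on chromosome 3, and of the interferon-induced effector Ifit3 on chromosome 19, each held a match within the last 150 bases. For Iigp1, Ifitm3, Ly6e, Ccl7 and Ccl9, which also rose, no match was found, and not every called gene had a promoter to search. The stretches shown were picked for holding a match, among the interferon-induced genes and chemokines that rose. Each is printed 5′ to 3′ on the plus strand and ends at the base before the gene start. Capitals mark the match, which in all 4 reads on the opposite strand.
Gbp2: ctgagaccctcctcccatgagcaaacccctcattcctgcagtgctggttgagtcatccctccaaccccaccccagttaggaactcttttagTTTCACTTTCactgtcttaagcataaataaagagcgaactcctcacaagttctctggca
Gbp3: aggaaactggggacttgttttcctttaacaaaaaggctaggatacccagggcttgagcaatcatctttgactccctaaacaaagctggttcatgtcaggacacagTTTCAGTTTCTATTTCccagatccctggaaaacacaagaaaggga
Gbp7: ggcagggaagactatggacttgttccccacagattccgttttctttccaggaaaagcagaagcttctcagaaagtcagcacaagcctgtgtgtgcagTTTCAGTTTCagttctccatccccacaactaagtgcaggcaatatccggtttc
Ifit3: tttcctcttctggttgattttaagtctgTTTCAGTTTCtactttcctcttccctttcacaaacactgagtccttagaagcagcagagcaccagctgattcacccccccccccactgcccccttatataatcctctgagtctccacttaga
The stretches are chr3:142620513-142620662, chr3:142559894-142560043, chr3:142530186-142530335 and chr19:34583379-34583528. The matches begin 59, 45, 53 and 122 bases upstream of the start, Gbp3 has a second that overlaps the first, 39 bases upstream, and Ifit3 has another 156 bases upstream, outside the stretch shown.

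Over the genes that rose, 60 had 64 RefSeq promoters in the table, and 9 of the 64 (14.1%) held the match, against 2.98% of all 32851 promoters and 2.72% of those of the genes tested. The other holders were B2m, Ctss, Cxcl10, Saa3 and Tgfbi. The gamma-activated site TTCNNNGAA was found in 4 of the 64 (6.25%), against 7.02% of all promoters and 6.04% of those of the genes tested. The C/EBP site TTNNGCAAT was found in only 3 of the 64 (4.69%), against 1.93% and 1.67%. The letters of a match describe the sequence and do not show that a factor was bound there.

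Gbp2 read 19.3, 118 and 30.6 on the naive and 626, 1114 and 269 on the placebo arrays. Its naive arrays differed widely, replicate 3 being the highest, yet all stayed below the EAE arrays, and the rise was 13.9-fold (3.80 ± 0.69 log2, SE, limma adjusted p = 0.0387). Iigp1, an immunity-related GTPase, read 55.6, 69.7 and 70.7 and 409, 661 and 241 (2.63 ± 0.35 log2, SE, limma adjusted p = 0.0105). Gbp7 read 47.6, 19.3 and 31.6 and 165, 276 and 113, and Gbp3 read 97.6, 80.8 and 80.7 and 345, 461 and 248 (limma adjusted p = 0.0298 and 0.0186). In all 4 GTPases placebo replicate 5 was the highest and placebo replicate 10 the lowest of the EAE arrays. Of 25 other interferon-induced effectors 3 rose, with a list median of 0.40 log2. Ifitm3, a membrane protein that blocks entry of viruses, read 53, 38.3 and 20.5 and 403, 550.1 and 328, a 12-fold rise (limma adjusted p = 0.00895). Ifit3, which binds viral RNA with its family, rose 4.00-fold and Ly6e, a membrane-anchored surface protein, 4.35-fold (limma adjusted p = 0.0399 and 0.0253). Samhd1, which depletes nucleotides, came to 2.03 ± 0.41 log2 (SE, limma adjusted p = 0.0593). With 1 array left out the highest adjusted p was 0.0629 for Iigp1 (without placebo replicate 1), and without placebo replicate 5 it was 0.0602 for Ifitm3, 0.0999 for Gbp3, 0.136 and 0.136 for Ly6e and Gbp7, 0.182 for Gbp2 and 0.194 for Ifit3.

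The factors and receptors upstream of these genes gave fewer calls. No member of 21 STAT, IRF and SOCS genes passed in limma by the probe set that stood for it, although 8 were higher at an unadjusted p under 0.05 and 7 were higher without overlap, with a median of 0.40 log2. Socs3, the feedback inhibitor of interleukin-6 family signals, read 335, 335 and 237 and 687, 825 and 374 (1.00 ± 0.27 log2, SE, limma adjusted p = 0.190). Its second probe set read 19.3, 19.3 and 24.9 and 117, 119 and 59.2 and passed, 4.46-fold higher (limma adjusted p = 0.0346, and 0.180 without placebo replicate 5). Irf1 and Irf8, interferon regulatory factors, came to 0.75 and 0.48 log2 (limma adjusted p = 0.363 and 0.283). Of 15 receptors for interferons and the interleukin-6 family, 1 rose, Osmr, the oncostatin M receptor, which read 35.1, 19.3 and 19.3 and 82.1, 90 and 83.4 (limma adjusted p = 0.0426, and 0.194 without placebo replicate 5). Ifnar1, a chain of the type I interferon receptor, came to 0.46 ± 0.18 log2 (SE, limma adjusted p = 0.422), and Il10rb, shared by receptors of the interleukin-10 family, to 0.54 ± 0.12 log2 (SE, limma adjusted p = 0.0763).

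Of the antigen presentation genes single members passed. B2m, the light chain shared by MHC class I molecules, read 140.5, 60.5 and 19.3 on the naive and 918, 1932 and 744 on the placebo arrays. Naive replicate 4 lay at the floor and placebo replicate 5 was the highest, so the rise of 20-fold had a wide error (4.33 ± 0.76 log2, SE, limma adjusted p = 0.0356, and 0.178 without placebo replicate 5). It was the member that passed among 7 class I chains by the probe set that stood for each gene, and their family members are alike enough in sequence for probe sets to share signal. H2-D1 read 416, 373 and 335 and 1757, 3149 and 1330 and H2-Q4 read 86.5, 62.3 and 86.4 and 428, 919.6 and 371, both class I heavy chains without overlap and short of the threshold (limma adjusted p = 0.0568 and 0.0545). Other probe sets of the heavy chains H2-D1 and H2-K1 passed. That of H2-D1 read 34, 19.3 and 19.3 and 146, 200.4 and 241 (3.04 ± 0.42 log2, SE, limma adjusted p = 0.0140) and that of H2-K1 231, 101 and 125 and 900.4, 1529 and 709 (2.79 ± 0.48 log2, SE, limma adjusted p = 0.0331). Without placebo replicate 5 their adjusted p-values were 0.0877 and 0.154. H2-K2, a gene on none of the lists, annotated in the class I region, rose 6.86-fold (limma adjusted p = 0.0243, and 0.111 without placebo replicate 5). All 9 genes of peptide loading and the immunoproteasome were higher on average, 6 without overlap, with a median of 0.59 log2, but none passed in limma and 3 were higher at an unadjusted p under 0.05. Psmb9, an immunoproteasome subunit, came to 1.78 ± 0.39 log2 (SE) and Psme1, a subunit of the proteasome activator, to 1.75 ± 0.36 log2 (limma adjusted p = 0.0873 and 0.0617), and the transporter Tap1 to 0.63 ± 0.25 log2 (limma adjusted p = 0.459). Among 12 MHC class II genes Ctss alone passed, and Cd74, the invariant chain, read 119.7, 88.9 and 101 and 277, 649 and 284, with placebo replicate 5 far above the other EAE arrays (limma adjusted p = 0.152).

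Chemokines, the secreted attractants of leukocytes, rose at 3 members. Ccl9, a CC chemokine of macrophages, read 41.1, 48.1 and 38.2 on the naive and 169, 232 and 141 on the placebo arrays, a 4.18-fold rise (limma adjusted p = 0.00836). Ccl7, a monocyte attractant, read 19.3, 19.3 and 19.3 and 79.4, 105 and 49.3, leaving the floor by at least 3.86-fold (limma adjusted p = 0.0415). Cxcl10, an interferon-induced attractant of T cells, read 30, 19.3 and 19.3 and 90.7, 111 and 83.4, even across the EAE arrays (limma adjusted p = 0.0243). Ccl7 and Ccl9 were highest in placebo replicate 5 and lowest in replicate 10. They and Cxcl10 were the 3 that passed of 25 measured chemokines, whose median was 0.45 log2 with 7 higher without overlap (against 7.16% of all genes). Ccl3, another CC chemokine, read 195, 220.2 and 230.4 and 307, 322 and 326 and did not pass (0.57 ± 0.13 log2, SE, limma adjusted p = 0.115). The 15 chemokine receptors had a median of -0.04 log2, which turned positive in 7 of the settings, and none passed in limma, with 2 higher and 2 lower at an unadjusted p under 0.05. Ccr1, a receptor for several CC chemokines, came to 1.81 ± 0.40 log2 (SE, limma adjusted p = 0.0880), or 1.75 ± 0.46 log2 without the exact 0 on naive replicate 2. Leaving out 1 array raised the adjusted p to 0.0580 for Ccl9 and 0.134 for Cxcl10 (without placebo replicate 5) and 0.195 for Ccl7 (without placebo replicate 1).

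Some of the calcium-binding S100 proteins and of the acute phase proteins rose. S100a8, a subunit of calprotectin that neutrophils and monocytes release, read 82.3, 79.7 and 64.9 on the naive and 618, 923 and 539 on the placebo arrays. The groups lay far apart, with a rise of 8.97-fold (3.16 ± 0.28 log2, SE, limma adjusted p = 0.00124). Its partner S100a9 was dimmer, at 19.3, 19.3 and 19.3 and 73.3, 129 and 77.1, and rose at least 4.67-fold from the floor (limma adjusted p = 0.0248). S100a6, made by astrocytes and dividing cells, read 72, 43.6 and 56.4 and 448, 511 and 411 and rose 8.10-fold (limma adjusted p = 0.00318). S100a10, the annexin A2 partner, rose 2.27-fold, S100a4 1.81-fold, and Anxa3, an annexin of myeloid cells, 3.27-fold (limma adjusted p = 0.0179, 0.0265 and 0.0259). These were 6 of 19 measured annexins and S100 proteins, whose median was 0.63 log2. With 1 array left out the highest adjusted p was 0.107 for S100a10, 0.126 for S100a4 and 0.131 for S100a9 (without placebo replicate 5) and 0.143 for Anxa3 (without placebo replicate 1).

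Of 18 neutrophil genes 4 rose, S100a8, S100a9, Lcn2 and Chil3, which monocytes, macrophages or astrocytes also make. Genes of neutrophil granules did not follow together: Ltf, lactoferrin, read 166, 184 and 189 and 294, 281 and 294 without overlap (0.69 ± 0.14 log2, SE, limma adjusted p = 0.0586), while the groups overlapped for Camp, Elane, Mpo and Ngp. Of 19 acute phase proteins 4 rose, and the median was 0.17 log2. Serpina3n, an inhibitor of serine proteases that reactive astrocytes make, read 139, 151 and 139 on the naive and 5795, 7180 and 4265 on the placebo arrays. Its naive arrays were nearly even and all EAE arrays lay far above them, a rise of 39.3-fold (5.30 ± 0.22 log2, SE, limma adjusted p = 4.80e-06). Lcn2, lipocalin 2, which binds iron-carrying siderophores, read 233, 429 and 328 and 1041, 1657 and 1231, a 4.02-fold rise (limma adjusted p = 0.0105). A2m, the broad protease inhibitor alpha-2-macroglobulin, rose 7.67-fold and Saa3, a serum amyloid A made outside the liver, 2.36-fold (limma adjusted p = 0.0346 and 0.0265). The highest adjusted p was 0.0602 for Lcn2 and 0.144 for Saa3 without placebo replicate 5, and 0.160 for A2m without placebo replicate 1.

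Among 16 C/EBP and AP-1 transcription factors 3 rose. Cebpd, which acute phase and myeloid signals induce, read 43.5, 50.4 and 31.5 on the naive and 475, 425 and 301 on the placebo arrays, a 9.58-fold rise (3.26 ± 0.27 log2, SE, limma adjusted p = 7.81e-04). Cebpb, its partner, read 19.3, 35.1 and 19.3 and 182, 305 and 90.5 (limma adjusted p = 0.0243, and 0.125 without placebo replicate 1). Both were lowest in placebo replicate 10. Fos, an immediate early factor, rose 3.04-fold (limma adjusted p = 0.0442, and 0.214 without placebo replicate 5) and was the 1 gene of 20 immediate early genes to pass. Of 23 genes that glucocorticoids induce, 6 rose, Cebpd, Cebpb, Lcn2, Mt1, Mt2 and Plin2, and 4 of these also stand on the reactive astrocyte list. Nfkbia, the NF-kappa B inhibitor that the factor itself induces, came to 0.73 ± 0.15 log2 (SE, limma adjusted p = 0.0593) without overlap, and its second probe set passed, from 101, 87.5 and 79.4 to 179, 233 and 161 (1.09 ± 0.19 log2, SE, limma adjusted p = 0.0356, and 0.178 without placebo replicate 5). By the probe sets that stood for them none of 10 NF-kappa B genes passed in limma, with 1 higher and 1 lower at an unadjusted p under 0.05. Il1rn, the interleukin-1 receptor antagonist, read 34.2, 43.9 and 30.1 and 262, 463 and 68.7, which spans a wide range within EAE (2.51 ± 0.59 log2, SE, limma adjusted p = 0.120).

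Actin-binding proteins of leukocytes rose in 5 of 27 genes measured, with 12 higher without overlap and a median of 0.47 log2. Capg, which caps actin filaments in macrophages, read 28, 19.3 and 19.3 on the naive and 152, 199.8 and 111 on the placebo arrays, 2 of the naive arrays being at the floor. It rose by 2.78 ± 0.32 log2 (SE, limma adjusted p = 0.00658). Lcp1, the actin-bundling L-plastin, read 109.8, 120.2 and 139.6 and 278, 368 and 329 (1.40 ± 0.18 log2, SE, limma adjusted p = 0.00905). Msn, moesin, which ties actin to the membrane, rose 2.84-fold, Coro1a, a leukocyte coronin, 2.36-fold and Tmsb4x, which holds actin monomers, 2.52-fold (limma adjusted p = 0.0243, 0.0374 and 0.0466). A second probe set of Myh9, a non-muscle myosin heavy chain, rose 7.42-fold (limma adjusted p = 0.0476, and 0.221 without placebo replicate 1), where the one that stood for the gene did not pass. Tmsb4x was nearly even in EAE at 2609, 2615 and 2704 and uneven in naive cord at 1598, 990.4 and 729. Actb, beta-actin, read 636, 502 and 845 and 2486, 2157 and 3767 outside the control probe sets and rose 4.21-fold (limma adjusted p = 0.0243), the transcript whose control probe sets gave the 5′ minus 3′ differences above. The 3 further actin-linked genes Tpm4, a tropomyosin, Cnn3, a calponin, and Ahnak, a large scaffold protein, named after their values were seen, rose by 1.09, 1.39 and 2.12 log2 (limma adjusted p = 0.0181, 0.0186 and 0.0105). Without placebo replicate 5 the adjusted p rose to 0.0644 for Lcp1, 0.134 for Msn, 0.191 for Coro1a, 0.191 for Tmsb4x and 0.107 for Tpm4. Without placebo replicate 1 it rose to 0.0953 for Actb, 0.0953 for Cnn3 and 0.0743 for Ahnak.

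Reactive astrocyte genes, those that astrocytes switch on after injury, had the highest median among the lists of resident cells. Of 18 measured, 7 rose, 13 were higher without overlap and the median was 1.30 log2, ranging from 1.02 to 1.68 log2 over the 3 placebo arrays when set against the naive mean. Beside Serpina3n, Cebpd, S100a6, Lcn2 and Osmr, the metallothioneins Mt1 and Mt2, which bind zinc and copper, rose from already high signals. Mt1 read 3742, 1929 and 1704 on the naive and 10356, 9255 and 6735 on the placebo arrays, and Mt2 read 2265, 1199 and 1200 and 7033, 6425 and 5025. In both, naive replicate 2 was the highest naive array and placebo replicate 10 the lowest EAE array, and the groups did not overlap. The rises were 1.90 ± 0.35 and 2.04 ± 0.33 log2 (SE; limma adjusted p = 0.0415 and 0.0252, and 0.196 without placebo replicate 1 and 0.134 without placebo replicate 5). The metal response element TGCNCNC matched 5 times upstream of Mt2 and 1 time upstream of Mt1, a short motif found in 44.4% of all promoters. It was found in 51.4% of the promoters of the genes tested and in 46.9% of those of genes that rose. Gfap, the astrocyte intermediate filament, was listed at 0 on naive replicate 2 and read 953 and 1001 on the other naive arrays against 2333, 2713 and 2310 in EAE. With the 0 at the floor the difference was 3.21 ± 1.24 log2 (SE, limma adjusted p = 0.422), and with it left out 1.32 ± 0.25 log2 (SE, limma adjusted p = 0.0231).

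Homeostatic astrocyte genes serve the resting tissue by taking up transmitters and building its matrix. Of 20 measured, 1 fell, against 0.049% of all genes, 5 were lower without overlap, against 7.54%, and the median was -0.11 log2, or 0.02 log2 in the values as deposited. Bcan, brevican, a proteoglycan of the nets around neurons, read 596, 511 and 498 on the naive and 354, 260.4 and 241 on the placebo arrays and was 1.90-fold lower (-0.92 ± 0.17 log2, SE, limma adjusted p = 0.0387, and 0.191 without placebo replicate 5). A dimmer Bcan probe set overlapped and differed by only -0.23 log2 (limma adjusted p = 0.965). Sparcl1, the matricellular protein hevin, read 2410, 1325 and 1095 and 838, 644 and 577 without overlap and did not pass (-1.16 ± 0.31 log2, SE, limma adjusted p = 0.172). Id4, an inhibitor of differentiation factors, came to -0.58 ± 0.15 log2 (SE, limma adjusted p = 0.166).

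Among the listed neuronal genes 1 fell, and counts lower without overlap are to be read against 7.54% of all genes. Cplx1, complexin 1, which clamps and triggers the release of synaptic vesicles, read 3208, 1829 and 1780 on the naive and 671, 1036 and 751 on the placebo arrays. All EAE arrays were below all naive arrays and the fall was 2.71-fold (-1.44 ± 0.25 log2, SE, limma adjusted p = 0.0331, and 0.162 without placebo replicate 1). It was the 1 gene of 26 in the synaptic vesicle list to pass, while 8 were lower without overlap, 8 were lower at an unadjusted p under 0.05, and 21 of the 26 differences were below 0, with a median of -0.35 log2. Syt11, a synaptotagmin, read 911, 601 and 575 and 299, 361 and 414, Nsf, the ATPase that takes apart SNARE complexes, 1247, 1056 and 939 and 758, 494 and 673, and Vamp2, a vesicle SNARE, 898, 678 and 653 and 606, 467 and 437. None of these 3 groups overlapped, and the differences were -0.94 ± 0.20, -0.77 ± 0.18 and -0.56 ± 0.17 log2 (SE; limma adjusted p = 0.0852, 0.118 and 0.259). Snap25, a membrane SNARE, overlapped, at 3379, 1335 and 948 and 1058, 939 and 774. Naive replicate 2 was the highest naive array for Cplx1, Syt11, Nsf, Vamp2 and Snap25, and without it the difference of Snap25 shrank from -0.83 to -0.30 log2.

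The neuronal cytoskeleton and axonal transport list of 34 genes had 9 lower and 2 higher without overlap and a median of -0.27 log2, and none passed in limma, with 9 lower and 1 higher at an unadjusted p under 0.05. Nefm, the middle neurofilament, read 3304, 1548 and 1209 and 1034, 828 and 600 (-1.20 ± 0.34 log2, SE, limma adjusted p = 0.220). Tubb4a, a tubulin of neurons and oligodendrocytes, read 5229, 2947 and 3116 and 2058, 1858 and 1664, and the kinesins Kif3a and Kif5c came to -0.92 ± 0.27 and -0.67 ± 0.20 log2 (SE; limma adjusted p = 0.197, 0.234 and 0.234). Nefl, the light neurofilament, was listed at 0 on naive replicate 2. Pdyn, the precursor of the opioid peptide dynorphin in the dorsal horn, had tight groups of 962, 1065 and 922 and 639, 667 and 641 and came closest to passing among 19 neuropeptides and granins (-0.60 ± 0.12 log2, SE, limma adjusted p = 0.0534). The median of that list was -0.04 log2 and turned positive in 2 settings, and a dimmer probe set of Pdyn differed by 0.16 log2 (limma adjusted p = 0.947). Without naive replicate 2 the differences of Nefm and, in the next list, Glrb shrank from -1.20 to -0.77 and from -1.09 to -0.69 log2. Of 28 genes of GABA, glycine and glutamate transmission 23 differences were below 0, with a median of -0.16 log2, and none passed in limma, with 4 lower and 1 higher at an unadjusted p under 0.05. Gabra2, a GABA receptor subunit, read 153, 122 and 139 and 54.8, 52.1 and 86.9, and Glrb, the glycine receptor's beta subunit, 728, 353 and 281 and 226, 194 and 170.3, both without overlap (limma adjusted p = 0.141 and 0.216). Voltage-gated channels, 37 genes, had a median of -0.15 log2 with 6 lower without overlap, and none passed in limma, with 2 lower at an unadjusted p under 0.05 (5.41%, near the 4.09% of all genes). Bche, butyrylcholinesterase of glia, left no signal above the floor on 2 placebo arrays, at 33.4, 88.8 and 66.4 and 19.3, 19.3 and 19.7 (-1.58 ± 0.40 log2, SE, limma adjusted p = 0.152).

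**Figure D4:**
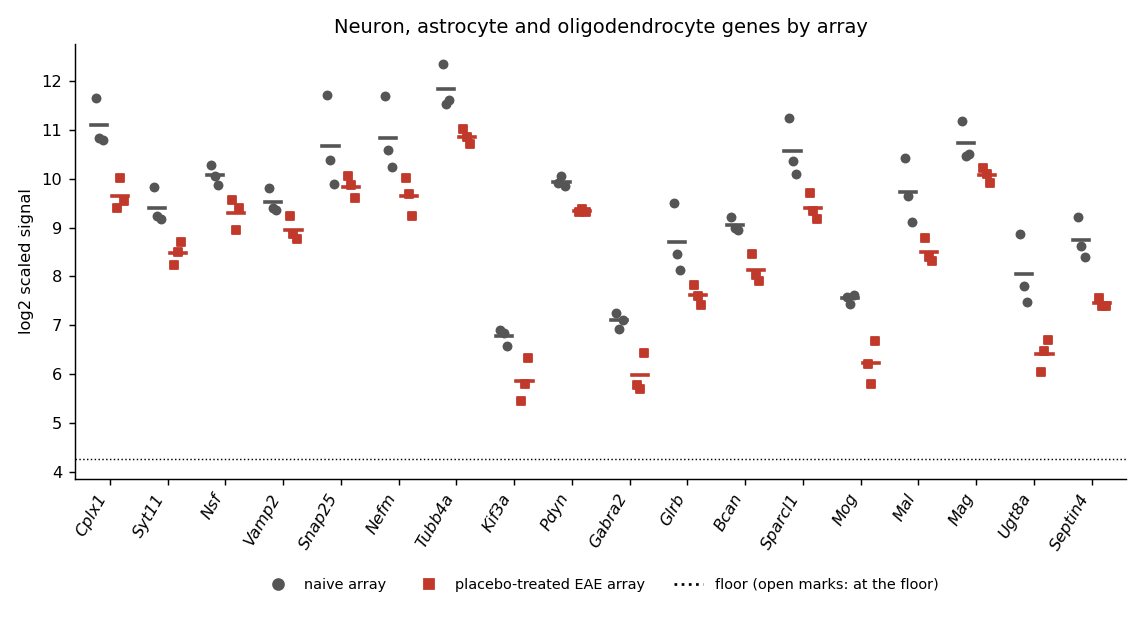
Log2 scaled signal (vertical) of genes of neurons, astrocytes and oligodendrocytes on each naive (grey) and placebo-treated EAE array (red), with bars at group means. In these 18 genes other than Snap25 each placebo array lies below each naive array, and Cplx1, Bcan and Septin4 passed the limma threshold. Most of the 18 were named for a small p within their lists, so this separation does not describe the lists. Lower without overlap were 8 of 26 synaptic vesicle, 9 of 34 cytoskeleton and transport and 3 of 9 myelin genes, against 7.54% of all genes. Aqp4, which overlapped, and Apod, which rose, are not shown.

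Among oligodendrocyte genes 1 fell and 1 rose. Septin4, a cytoskeletal septin, read 594, 397 and 337 on the naive and 187, 168 and 169 on the placebo arrays. Its EAE arrays were tight and well below the naive ones, 2.46-fold (-1.30 ± 0.22 log2, SE, limma adjusted p = 0.0310, and 0.145 without placebo replicate 5). A dimmer Septin4 probe set overlapped and differed by only -0.17 log2 (limma adjusted p = 0.937). Of 18 oligodendrocyte enzymes and factors Septin4 was the 1 that fell, and 7 were lower without overlap, with a median of -0.23 log2. Apod, apolipoprotein D, which oligodendrocytes, astrocytes and perivascular cells make, rose in the same list, from 436, 319 and 326 to 1902, 1659 and 1059 (2.07 ± 0.29 log2, SE, limma adjusted p = 0.0140, and 0.0877 without placebo replicate 5). Ugt8a, which makes the galactolipids of myelin, read 468, 225 and 177 and 66.4, 89.5 and 103 (-1.64 ± 0.37 log2, SE, limma adjusted p = 0.0917). Gsn, gelsolin, came to -0.65 ± 0.16 log2 (SE, limma adjusted p = 0.133). Of 9 myelin protein genes none passed in limma and 3 were lower at an unadjusted p under 0.05, with a median of -0.15 log2. Mog, the myelin surface protein that is a target in EAE, read 193, 174 and 197 and 73.6, 55.4 and 102 (-1.33 ± 0.30 log2, SE, limma adjusted p = 0.106). Mal, a myelin proteolipid, read 1367, 805 and 551 and 439, 335 and 321, and Mag, the myelin-associated glycoprotein, 2331, 1420 and 1458 and 1189, 1090 and 969 (limma adjusted p = 0.191 and 0.280). In these 3 genes every EAE array was below every naive array, and without naive replicate 2 the difference of Mag shrank from -0.65 to -0.42 log2.

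Matrix genes changed at single members. Fn1, fibronectin, a glycoprotein of plasma and of injured tissue, read 110, 115 and 82.6 on the naive and 775, 1248 and 1060 on the placebo arrays. It rose 9.93-fold with narrow errors (3.31 ± 0.25 log2, SE, limma adjusted p = 5.05e-04). Tgfbi, a matrix protein induced by TGF-beta, rose 4.51-fold (limma adjusted p = 0.0206, and 0.111 without placebo replicate 5). With Bcan lower, 3 of 36 matrix glycoproteins and proteoglycans changed, and the median of 0.07 log2 was close to 0. Srgn, serglycin, the proteoglycan of leukocyte granules, was at the floor on the naive arrays and read 613, 886 and 153 in EAE, at least 22.7-fold higher (4.50 ± 1.24 log2, SE). It did not pass (limma adjusted p = 0.201) with an exact 0 of a calcitriol array at the floor, and did with that value left out (limma adjusted p = 0.00169). Col4a1, a chain of basement membrane collagen, read 110.2, 129.5 and 117 and 385, 327 and 257 (limma adjusted p = 0.00878, and 0.0602 without placebo replicate 5), and Col4a3, a related chain, left the floor by at least 2.92-fold (limma adjusted p = 0.0368, and 0.182 without placebo replicate 5). They were the 2 that rose of 31 collagens, whose median was -0.06 log2. Igfbp7, a growth factor binding protein of vessels, rose 2.95-fold among 30 growth and repair factors (limma adjusted p = 0.0265, and 0.145 without placebo replicate 1). Timp1, an inhibitor of matrix proteases, read 485, 506 and 475 and 673, 901 and 779 (0.67 ± 0.15 log2, SE, limma adjusted p = 0.0817), and none of 20 matrix proteases and inhibitors passed in limma, with 2 higher and 1 lower at an unadjusted p under 0.05. Plin2, which coats lipid droplets, rose 2.67-fold, from 177, 197 and 176 to 514, 688 and 332 (limma adjusted p = 0.0491, and 0.211 without placebo replicate 1).

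Of the ribosomal protein, oxidative phosphorylation, endoplasmic reticulum stress and glycolysis genes 2 passed, both ribosomal. Of 36 cytosolic ribosomal protein genes 32 differences were above 0, 12 were higher without overlap (against 7.16% of all genes), and the median was 0.38 log2. Rplp0, an acidic protein of the large subunit, was even within both groups at 887, 856 and 826 and 1893, 1840 and 1922 and rose 2.20-fold (limma adjusted p = 0.00895, and 0.0602 without placebo replicate 5). Rpl10a rose 2.16-fold (limma adjusted p = 0.0387, and 0.189 without placebo replicate 5), and Rps10 came to 0.95 ± 0.19 log2 (SE, limma adjusted p = 0.0593). Many pseudogenes resemble ribosomal protein genes, so their probe sets may share signal. Of the 70 genes of oxidative phosphorylation 50 differences were below 0, 7 were lower without overlap (against 7.54% of all genes), and the median was -0.23 log2. None passed in limma, with 6 lower at an unadjusted p under 0.05 (8.57%, against 4.09% of all genes), led by Sdha, a subunit of succinate dehydrogenase, at -0.81 ± 0.26 log2 (SE, limma adjusted p = 0.299). Endoplasmic reticulum stress genes, 20 in all, had a median of 0.46 log2 and none passed in limma, with 5 higher at an unadjusted p under 0.05. Manf, a secreted stress protein, read 133, 170.5 and 144 and 256, 261 and 245 (0.77 ± 0.19 log2, SE, limma adjusted p = 0.131). Glycolysis had a median of 0.20 log2 over 22 genes, and Aldoa, an aldolase, read 458, 694 and 966 and 1656, 1432 and 1204 (1.07 ± 0.27 log2, SE, limma adjusted p = 0.140). None of these 22 passed in limma, with 4 higher and 1 lower at an unadjusted p under 0.05.

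Lymphocyte genes gave no calls. Of 23 T cell genes 18 differences were below 0 and none passed in limma, with 2 lower at an unadjusted p under 0.05 and a median of -0.13 log2. Without overlap 5 were lower and 1 higher, against 7.54% and 7.16% of all genes. Zap70, the T cell receptor kinase, read 424, 404 and 366 and 262, 298 and 332, and Cd8b1, a chain of the CD8 coreceptor, 76.8, 95.2 and 88.7 and 37.6, 67.7 and 45, both lower without overlap (limma adjusted p = 0.389 and 0.422). Other probe sets of Zap70 did not fall and overlapped, at 0.19 and -0.02 log2 (limma adjusted p = 0.793 and 0.992). Of 14 B cell and plasma cell genes none passed in limma, with 1 lower at an unadjusted p under 0.05 and a median of -0.12 log2 that turned to 0.01 log2 in the values as deposited. Pax5, a B cell factor, came to -0.37 ± 0.16 log2 (SE, limma adjusted p = 0.495). Cell cycle and DNA replication genes, 37 in all, had a median of 0.09 log2 and none passed in limma, with 1 higher and 3 lower at an unadjusted p under 0.05. Mki67, a marker of dividing cells, was at the floor on 2 naive arrays and uneven in EAE, at 20.6, 19.3 and 19.3 and 22, 96.3 and 81.1 (1.50 ± 0.50 log2, SE, limma adjusted p = 0.335). In the values as deposited the median of all probe sets was 0.11 log2 instead of -0.02 log2, and the medians of all lists moved up with it.

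**Figure D5:**
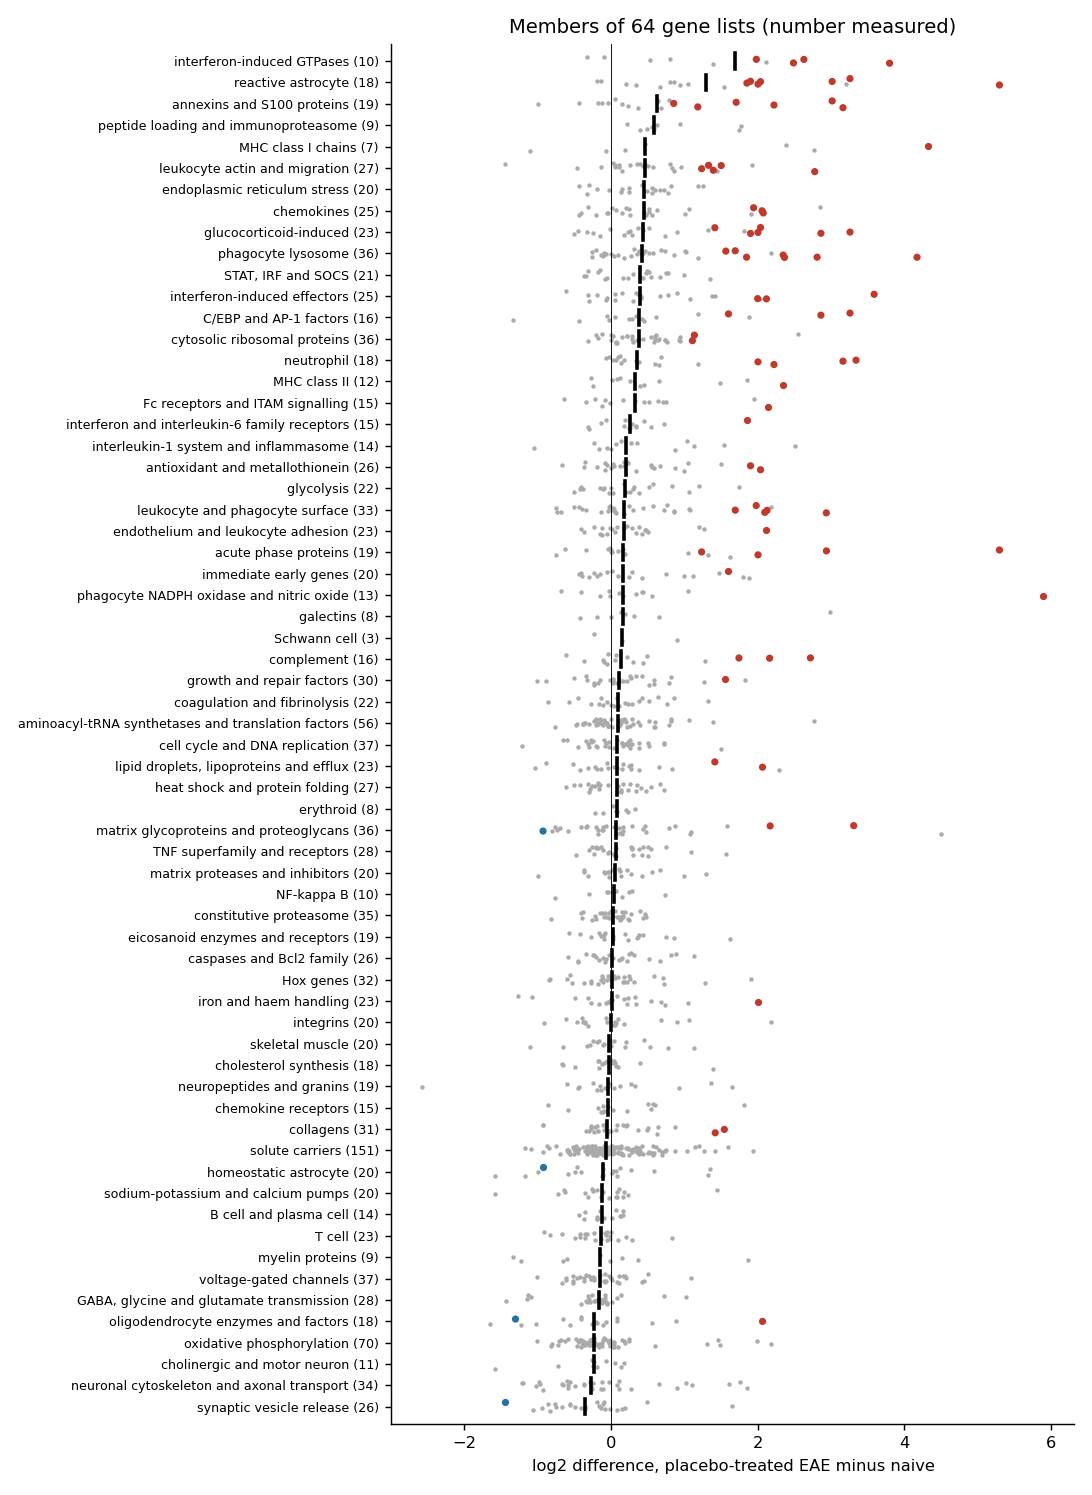
Log2 difference of each measured member of 64 gene lists (points; red and blue, genes past the limma threshold; grey, the others), with a black bar at each list's median and lists ordered by it. Interferon-induced GTPases (median 1.69 log2) and reactive astrocyte genes (1.30 log2) are at the top and synaptic vesicle genes (-0.35 log2) at the bottom.

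The 64 lists held 1465 of the measured genes and 61 of the 81 called ones, 58 of the 77 that rose and 3 of the 4 that fell, and 20 called genes stood on none. Timm9, which chaperones proteins into mitochondria, was the remaining fall, from 44.8, 62.5 and 52 to 19.3, 19.3 and 20.4 with 2 placebo arrays at the floor (limma adjusted p = 0.0491, and 0.195 without placebo replicate 1). Wdr92, a factor for dynein assembly, read 375, 196 and 179 and 1380, 1644 and 561 (2.20 ± 0.40 log2, SE, limma adjusted p = 0.0387, and 0.195 without placebo replicate 1). The following were named after their values were seen. Flot1, a scaffold of membrane microdomains, rose 3.68-fold, Sat1, which acetylates polyamines, 2.96-fold, and Pnp, a phosphorylase of purine nucleosides, 2.72-fold (limma adjusted p = 0.0142, 0.0152 and 0.0448). Bhlhe40, a transcription factor of the clock and of myeloid cells, rose 2.57-fold and Ms4a6c, a membrane protein of monocytes, 2.22-fold (limma adjusted p = 0.0253 and 0.0253). Rhoj, a GTPase of endothelial cells, left the floor by at least 3.36-fold, and Spint1, a protease inhibitor, rose 2.37-fold (limma adjusted p = 0.0356 and 0.0491). Leaving out 1 array raised the adjusted p to between 0.0841 for Flot1 (without placebo replicate 1) and 0.227 for Spint1 (without placebo replicate 5).

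Of the falls that missed the threshold, several had groups without overlap. Eif2ak4, the kinase that senses lack of amino acids, read 57.5, 59 and 50.6 on the naive arrays and lay at the floor on all 3 placebo arrays, at least 2.89-fold lower (limma adjusted p = 0.0624, -1.53 ± 0.31 log2, SE). Slc22a17, the lipocalin 2 receptor, read 1968, 1664 and 1564 and 1101, 1029 and 779, opposite to Lcn2 (-0.85 ± 0.17 log2, SE, limma adjusted p = 0.0615). Fez1, a kinesin adaptor of axons, read 1899, 1128 and 811 and 605, 514 and 419, and Nvl, a nuclear ATPase, 80.6, 89.8 and 98.7 and 38.9, 23.7 and 19.3 (limma adjusted p = 0.0967 and 0.0873), and the other probe set of each pointed the opposite way. The array's 17 called probe sets without a single gene symbol, 8 with several and 9 with none, were 15 higher and 2 lower. The lower 2, both without any symbol, were the largest falls among the called: the first read 13996, 7200 and 5892 on the naive and 1281, 2078 and 1423 on the placebo arrays (-2.43 log2, limma adjusted p = 0.0356), and the second 106, 58.8 and 152 before lying at the floor in EAE (-2.35 log2, limma adjusted p = 0.0243).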

How the data were processed

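Total RNA of spinal cord was measured on 9 one-colour oligonucleotide arrays, 3 per group. The deposited file gave a linear intensity per array for 12488 probe sets, and the summary and scaling behind it were not stated in the labels. Here every array was brought to 1 mean (192.6, computed without the top and bottom 2%), values under 10% of that mean were set to 19.3, and log2 was taken. Apart from 66 controls, 12422 probe sets remained, of which 12178 exceeded that floor on 3 or more of the 9 arrays and were tested, and 244 were too dim. limma 3.58.1 on R 4.3.3 fitted all 9 arrays with an intensity trend and 6 residual degrees of freedom, with Benjamini-Hochberg adjustment. The median SE of a difference was 0.29 log2, and its 95% interval reached 0.64 log2 to either side. The arrays' number limits this precision. The fit was checked on simulated data. Python 3.11.15, pandas 2.3.3 and matplotlib 3.10.9 made the tables and plots.

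Gene names come from the platform annotation: 10855 probe sets had 1 symbol, 396 several and 1237 none. Each of 8170 genes had 1 probe set, a plain one first and then the brightest (1997 genes had more). Genes named were the 30 largest rises and all falls past the threshold, the 10 best falls without overlap that missed it, tissue markers, and from each list the members past the threshold and the 4 of smallest p. The comparison, the members and the lists were chosen with earlier results of these data known. Lists were written from general knowledge, share genes and were not tested as sets. Promoters came from RefSeq (GRCm38.p6), with 64 of 81 called genes matched. Alternatives covered scaling, floor, filter, array weights, arrays fitted, variance prior, exact zeros and each array left out.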

Additional observations from a re-analysis of the deposited data

Results flagged for a closer look

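The control probe sets were left out of the fit. In 2 of them for beta-actin, both with names that end in _st, each placebo-treated EAE array was brighter than each naive array, a difference that was not tested. The one toward the 3′ end read 154, 346 and 342 signal units on naive replicates 2, 3 and 4 and 541, 455 and 688 on placebo replicates 1, 5 and 10, a difference of 1.07 log2. The one in the middle of the transcript read 62.9, 41.4 and 57.1 on the naive and 115, 129 and 170 on the placebo arrays, a difference of 1.36 log2. Actb itself rose outside the controls, as given above.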

How the results depend on the processing

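Of 12178 probe sets, 114 passed, and the number was 634 with array weights (459 higher, 175 lower, 72.4% higher). The weights were 4.38 for naive replicate 3 against 0.26 and 0.41 for replicates 2 and 4. With the naive and placebo arrays alone 61 passed, 61 higher and 0 lower, so none of the called falls passed there. With 1 array left out the number ran from 20 to 177. It was 171 with exact zeros left out (113 of the 114 among them), 129 in the values as deposited, 84 without the variance trend and 88 with a floor of 20%, and between 104 and 120 in the other 4 settings. Counting a gene by any of its probe sets, an alternative chosen after seeing the data, gave 95 genes against 81. No called probe set changed direction in any of the 19 settings where it was tested. The direction turned for genes listed at 0 on naive replicate 2. Mbp was at 1.86 log2, but at -0.18 with array weights and at -0.38 both without the exact zeros and without that array, and from -0.38 to 3.08 over the arrays left out. Nefl was at 1.11 log2, but at -0.38 with array weights and -0.66 in each of those other settings, and from -0.66 to 2.02 over the arrays left out. The cause of the other shifts was not tested. No paired analysis was possible because replicate numbers run across the series and the groups share none. Genes near the floor mostly have wide errors, but a group whose arrays all lie at the floor shows no spread. On the 6 arrays 526 tested probe sets, none of them called, held an exact 0.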
